A study of Rattus norvegicus with 2 samples.

Results

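Probe-sparse fragments are fragments of a 1 Mb grid on the rat autosomes in which the microarray placed few probes. The last fragment of a chromosome can cover less than 1 Mb, so few probes there need not mean wide spacing. Chromosomes 1 to 20 of the rat assembly rn4 were cut into non-overlapping fragments of 1 Mb from their first base, and a fragment was taken as probe-sparse when it held 10 to 49 distinct probes, after every probe that Feature Extraction had marked as an outlier (non-uniform or deviating spot) on 1 or both arrays was dropped. This number follows from the design of the array and from the spot flags and not from the 8-oxoG signal. Of 2570 autosomal fragments with at least 1 probe, 452 (17.6%) were probe-sparse. They carried 19176 probes, which is 8.72% of the autosomal probes, at a median of 45 probes per fragment. Most were close to the upper limit, with 359 fragments of 40 to 49 probes, 64 of 30 to 39, 17 of 20 to 29 and 12 of 10 to 19. The remaining autosomal fragments held 50 or more probes (2103 fragments) or 1 to 9 probes (15 fragments).

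8-Oxoguanine (8-oxoG) is an oxidised form of guanine that arises in DNA through reactive oxygen species. It can pair with adenine during replication, which leads to G-to-T transversions, and it is removed mainly by base excision repair that starts with the glycosylase OGG1. Immunoprecipitation (IP) with an antibody to 8-oxoG enriches DNA pieces that carry the lesion, so the ratio of IP to input DNA at a probe is read as the relative 8-oxoG level of its surroundings.

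Genomic DNA came from the kidneys of 2 untreated male rats of 5 weeks (strain given as Wister rat in the labels) kept free of specific pathogens under a normal condition, with 1 array per rat. DNA precipitated with the 8-oxoG antibody N45.1 was labelled with Cy5 and input DNA without IP with Cy3, with 800 ng of DNA per labelling. Both arrays form 1 group, here called replicate 1 and replicate 2, with no control animals and no dye swap, so a difference between dyes and a difference between IP and input cannot be told apart. Kidney was taken whole, and its cell types are not resolved.

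The 8-oxoG level of a probe was the log2 ratio of the processed IP to the processed input intensity, set to a median of 0 on each array, and the level of a fragment was the mean over its probes. A level of 0 is thus the median probe of the array and not an absence of 8-oxoG. Of 235872 probes kept, 231247 lay on chromosomes 1 to 20 and X, which gave 2731 fragments for the fit. Each fragment was tested against 0 by limma over both arrays, with a standard error of 0.10 that was pooled over all fragments, and called above or below 0 at a Benjamini-Hochberg adjusted p under 0.05. As the spread was pooled, a fragment may be called although the arrays differ in sign.

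Probe-sparse fragments had a higher 8-oxoG level than the rest of the autosomes in both rats. Their mean level was 0.32 on replicate 1 and 0.15 on replicate 2, or 0.23 ± 0.12 (SD, n = 2). Fragments with 50 or more probes averaged -0.022 and -0.097. The difference was 0.34 on replicate 1 and 0.25 on replicate 2, with a mean of 0.29 ± 0.066 (SD, n = 2), so both arrays moved the same way. After normexp correction it was 0.094 and 0.022, and the mean level of the probe-sparse fragments themselves was -0.0017 and -0.0078. An exact two-sided sign-flip test over 2 arrays gave p = 0.5, which is the smallest value that 2 arrays allow.

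Limma called 252 probe-sparse fragments (55.8%) above 0 and 24 (5.31%) below 0, while 176 were not called. Over all 2731 fragments tested, 20.9% were called above and 20.4% below. Probe-sparse fragments made up 44.1% of all fragments called above and 4.31% of those called below. Among fragments with 50 or more probes the counts ran the other way, with 299 (14.2%) above and 492 (23.4%) below. Of the called probe-sparse fragments, 249 had both arrays above 0 and 23 had both below. The pooled standard error took no account of the number of probes. With the spread as a trend on that number, 190 (42.0%) were called above and 8 (1.77%) below. Over all fragments the shares were then 19.1% and 26.9%. When a trend of the level on the mean input intensity of the fragments was removed, an alternative added after seeing the data, 80 (17.7%) were called above and 13 (2.88%) below, against 6.74% and 10.4% of all fragments. With normexp background correction, which adds an offset to both channels and compresses the ratios, 3 (0.664%) were called above and 14 (3.10%) below, against 0.256% and 3.63% of all fragments.

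With the call set aside, 318 probe-sparse fragments (70.4%) lay above 0 on both arrays, 56 (12.4%) lay below 0 on both, and 78 (17.3%) had opposite signs. For fragments with 50 or more probes the shares were 25.2%, 57.6% and 17.2%. The opposite signs were uneven, since 64 of the 78 lay above 0 on replicate 1 and 14 on replicate 2. The median probe-sparse fragment had a level of 0.27, the quartiles were 0.074 and 0.41, and the levels ran from -0.45 to 0.80. Of the 452 fragments, 336 (74.3%) lay above the upper quartile of fragments with 50 or more probes.

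**Figure D1:**
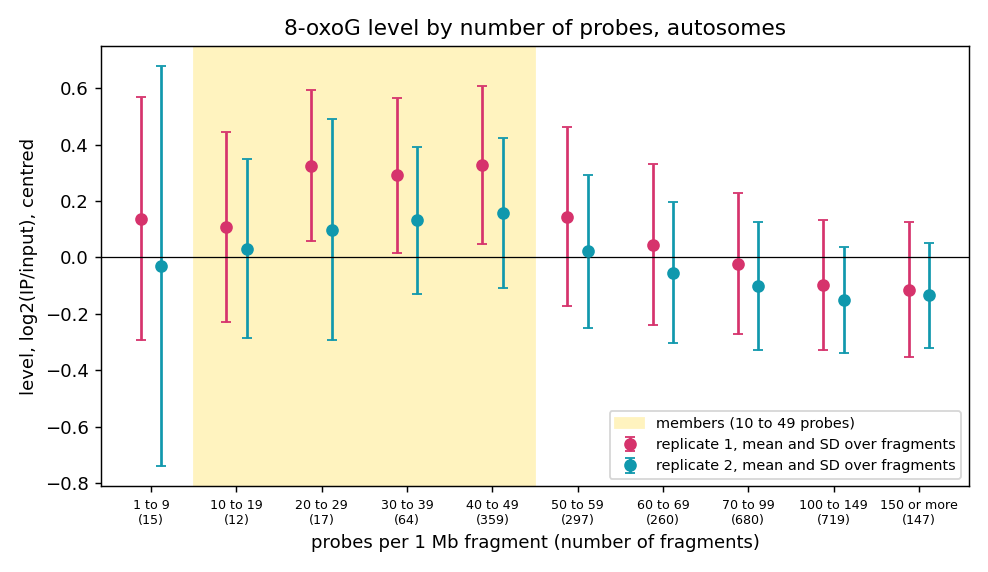
Mean 8-oxoG level, as centred log2(IP/input), of autosomal 1 Mb fragments by number of probes, for replicate 1 and replicate 2; bars are the SD over fragments, the shaded classes are the probe-sparse fragments, and the number of fragments is given in parentheses. On both arrays the means of the classes of 20 to 49 probes lie above those of every class of 50 or more probes.

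The number of probes and the level did not run in one line. On replicate 1 the mean was 0.11 for 10 to 19 probes, 0.33 for 20 to 29, 0.29 for 30 to 39 and 0.33 for 40 to 49. On replicate 2 the same classes averaged 0.032, 0.099, 0.13 and 0.16. Fragments of 50 to 59 probes averaged 0.14 and 0.021, those of 70 to 99 probes -0.022 and -0.10, and those of 100 or more -0.10 and -0.15. The sparsest class was thus the lowest of the 4 on both arrays, and it rests on 12 fragments. Within the probe-sparse fragments, the correlation of level and number of probes was r = 0.12 on replicate 1 and 0.10 on replicate 2 (n = 452), while over all 2570 autosomal fragments it was -0.42 and -0.33.

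At the limits of the definition, the 43 fragments with 49 probes averaged 0.29 and 0.15, and the 38 fragments with 50 probes averaged 0.23 and 0.055. The single fragment with 10 probes had -0.063 and -0.071, and the 4 fragments with 9 probes averaged 0.13 and 0.16. Against the neighbouring class of 50 to 59 probes, all probe-sparse fragments were higher by 0.17 on replicate 1 and 0.13 on replicate 2. Against fragments with 100 or more probes the difference was 0.42 and 0.30. It was larger against the denser class on both arrays. Calls above 0 made up 5 of 12, 11 of 17, 32 of 64 and 204 of 359 fragments from the sparsest class to the fullest.

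The 12 fragments of 10 to 19 probes illustrate how few probes stand behind some values. The first Mb of chromosome 3, chr3:1-1000000 with 15 probes, had 0.45 and 0.54 and was the highest of them. The first Mb of chromosome 1, chr1:1-1000000 with 11 probes, had 0.48 and 0.34. The lowest, chr15:30000001-31000000 with 13 probes, had -0.012 and -0.59 and was called below 0 (limma, adjusted p = 0.015) although replicate 1 lay near 0. These fragments were bright, with a median input intensity of 180 and 141, against 63.4 and 48.3 for all probe-sparse fragments.

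The signal behind the ratios was dimmer in probe-sparse fragments, mostly in the input channel. The median input intensity of their probes was 63.4 on replicate 1 and 48.3 on replicate 2, and in fragments with 50 or more probes it was 95.7 and 75.7. The IP intensity was 90.7 and 62, against 94.2 and 74.4. Probes well above background in both channels made up 79.8% and 75.9% in probe-sparse fragments and 84.5% and 81.3% in the others. No probe of a probe-sparse fragment was saturated. Each ratio has the input as its denominator, and the part of the input in the higher level was not tested other than by the comparisons that follow.

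Within the probe-sparse fragments, dimmer input went with a higher level. The correlation of level and mean log2 input was r = -0.64 on replicate 1 and -0.58 on replicate 2 (n = 452 fragments, which share arrays and probe design). With the input of the other rat in its place it was -0.65 and -0.56. Both arrays carry the same probes, so this exchange cannot separate the denominator of the ratio from a probe brightness common to both arrays. In fragments with 50 or more probes the correlation of level and input of the same array was -0.73 and -0.74.

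Within classes of input intensity, probe-sparse fragments were still higher than the others. When the autosomal fragments were divided by mean input into 5 classes of like size, 219 probe-sparse fragments (48.5%) fell into the dimmest and 62 (13.7%) into the brightest, against 14.0% and 21% of the fragments with 50 or more probes. In the dimmest, probe-sparse fragments averaged 0.50 and 0.30 and the others 0.42 and 0.26. In the middle one the means were 0.13 and 0.028 against -0.094 and -0.13. In the brightest they were 0.019 and -0.12 against -0.20 and -0.26. The difference was smallest in the dimmest, at 0.063 ± 0.036 (SD, n = 2), and it ran from 0.15 to 0.19 in the other 4. Input was not equal inside the classes. In the dimmest its geometric mean was 37.8 and 27.9 for probe-sparse fragments and 40.9 and 30.2 for the others. In the brightest it was 128.6 and 100.9 against 105.2 and 84.3. Removal of the trend on input over fragments left a difference of 0.11 on replicate 1 and 0.071 on replicate 2.

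**Figure D2:**
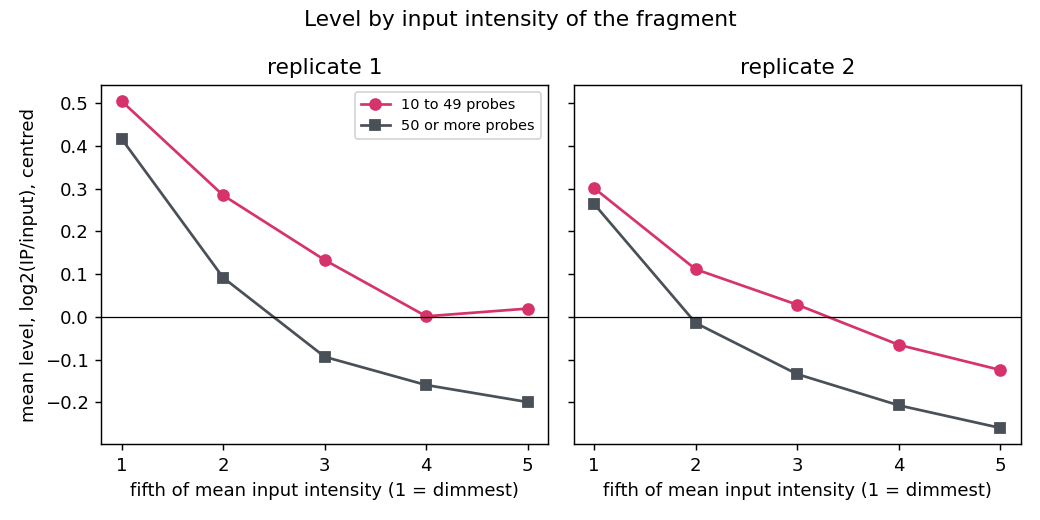
Mean level, as centred log2(IP/input), of autosomal 1 Mb fragments in 5 classes of their mean input intensity (1 is the dimmest), for probe-sparse fragments and for fragments with 50 or more probes on each array. Both lines fall from dim to bright fragments, and the probe-sparse line lies above the other in every class on both arrays.

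Single probes were more often above 0 as well. Of the probes in probe-sparse fragments, 63.4% were above 0 on replicate 1 and 58.3% on replicate 2, against 48.5% and 49.1% in fragments with 50 or more probes. Both arrays were above 0 for 44.0% of them, against 30.2%. The SD over the probes of a fragment had a median of 0.93 and 1.18, so a fragment of 45 probes averages over widely scattered values.

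Levels of the same probe-sparse fragment in both rats were correlated, with Pearson's r = 0.71 and Spearman's rho = 0.70 over 452 fragments. Fragments with 50 or more probes gave r = 0.80, which fell to 0.63 when each was thinned to 30 probes, evenly spaced in their order. Probe-sparse fragments held a median of 45 probes, so the thinned fragments are not matched to them in number. The SD over fragments was 0.26 for probe-sparse fragments and 0.24 for the others, or 0.27 after thinning. Replicate 1 was higher in 355 of the 452 fragments. The mean difference of replicate 1 and replicate 2 was 0.17 with an SD over fragments of 0.21, against 0.075 and 0.16 in fragments with 50 or more probes.

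**Figure D3:**
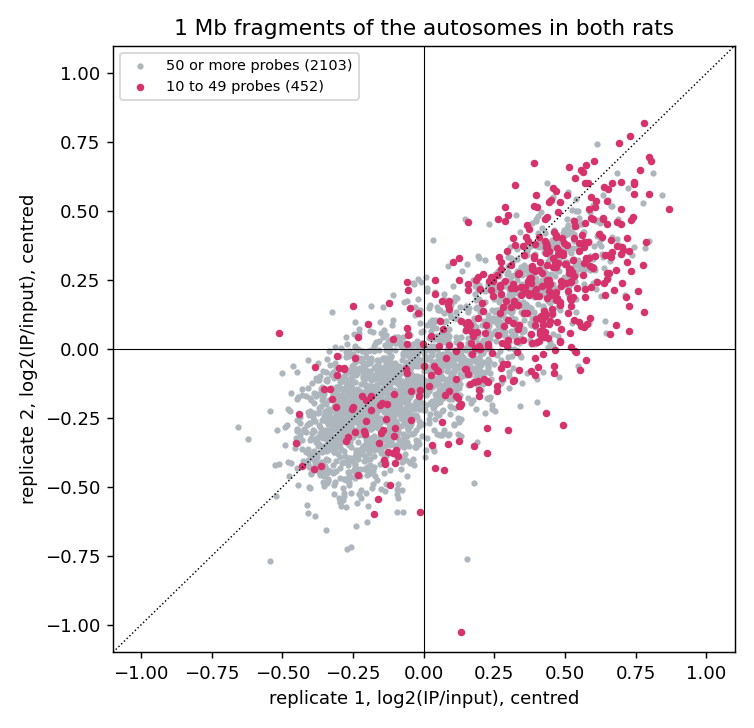
Level of each autosomal 1 Mb fragment on replicate 1 (horizontal) and replicate 2 (vertical), both as centred log2(IP/input), with probe-sparse fragments in pink over fragments with 50 or more probes in grey; the dotted line marks equal levels. Most probe-sparse points lie in the upper right quadrant and under the dotted line, and 1 lies apart near -1 on replicate 2.

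The left and right sides of a probe-sparse fragment were also related, when each fragment was split at its midpoint. In 428 fragments with at least 5 probes on each side, the correlation between both sides was r = 0.53 on replicate 1 and 0.33 on replicate 2. Taken across rats, with one side from each, it was 0.36 and 0.41. In 2098 fragments with 50 or more probes these correlations were higher, at 0.61 and 0.41 within rats and 0.48 for both pairings across rats. The mean of both arrays lay on the same side of 0 in both pieces for 360 of the 428 fragments (84.1%), and for 76.2% of those with 50 or more probes. Such a share also depends on the distance of the levels from 0. The mean level was 0.23 in all probe-sparse fragments and -0.060 in all with 50 or more probes.

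The 6 highest probe-sparse fragments had levels of at least 0.65 on both arrays. The highest, chr15:97000001-98000000 with 48 probes, had 0.78 on replicate 1 and 0.82 on replicate 2 (limma, adjusted p = 2.7e-11). It was followed by chr7:84000001-85000000 with 46 probes, at 0.73 and 0.77. On chromosome 2 the rule named 3 fragments, chr2:134000001-135000000 at 0.80 and 0.70, chr2:129000001-130000000 at 0.80 and 0.68 and chr2:72000001-73000000 at 0.69 and 0.75. The last of the 6 was chr1:10000001-11000000 with 32 probes, at 0.76 and 0.65. Neighbours in this order differ by less than the standard error of 0.10, so the order is not resolved.

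The 6 lowest were less far from 0 and less even between the rats. The lowest of them, chr7:126000001-127000000 with 48 probes, had -0.43 on both arrays (limma, adjusted p = 5.3e-04). Near to it were chr1:89000001-90000000 at -0.39 and -0.44, chr1:121000001-122000000 with 21 probes at -0.45 and -0.34, and chr17:20000001-21000000 at -0.36 and -0.42. For chr3:150000001-151000000 the arrays gave -0.18 and -0.60, and for chr14:16000001-17000000 -0.16 and -0.55. In those last fragments replicate 2 carried most of the value. No gene is named in any of these fragments, because no rn4 annotation was used here.

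Some probe-sparse fragments differed widely between the rats. The fragment chr18:51000001-52000000 with 21 probes had 0.13 on replicate 1 and -1.03 on replicate 2, and limma called it below 0 although the signs were opposed (adjusted p = 2.9e-04). The fragments chr2:132000001-133000000 (0.49 and -0.27) and chr17:81000001-82000000 (0.43 and -0.23) also lay above 0 on replicate 1 alone. In the other direction, chr5:173000001-174000000 with 17 probes had -0.51 and 0.058, chr15:5000001-6000000 with 15 probes had -0.25 and 0.16, and chr1:68000001-69000000 had -0.39 and -0.063. None of the last 5 was called. These 6 were chosen for the size of their difference, so it is given as a description. In chr5:173000001-174000000, the last fragment of its chromosome, the 17 probes spanned only 76752 bases.

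The higher level was found on nearly every autosome. Within each chromosome the mean of the probe-sparse fragments was compared with that of its other fragments. Limma called 19 of 20 chromosomes (95%) higher, with adjusted p of at most 0.0088 and a standard error of 0.052. That standard error was pooled over the chromosomes. All of them were measured on the same 2 arrays, so the 19 calls are not independent of each other. The difference averaged 0.31 on replicate 1 and 0.22 on replicate 2, or 0.26 ± 0.065 (SD, n = 2). The exception was chromosome 17, with 0.063 and -0.0048 (mean 0.029, limma, adjusted p = 0.58). Its probe-sparse fragments had brighter input than its other fragments on replicate 1, at 90.9 against 82.4. The same held on chromosome 12, at 109.7 against 82.0. On every other autosome the probe-sparse fragments were the dimmer ones, and the part of the input in these differences was not tested. With the trend on input over fragments removed, 9 chromosomes were called. After normexp correction limma called 0, with 4 of 20 at an unadjusted p under 0.05 and the mean difference above 0 on all 20.

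The widest difference was on chromosome 5, with 0.47 and 0.33, followed by chromosome 13, with 0.43 and 0.31. The narrowest among called chromosomes were chromosome 12, with 0.23 and 0.073 over 5 probe-sparse fragments, and chromosome 10, with 0.22 and 0.11 over 8. On chromosome 5, 26 of 33 probe-sparse fragments were called above 0 and 0 below. On chromosome 17, 0 of 11 were called above and 3 below. Over all fragments tested, 20.9% were called above and 20.4% below.

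**Figure D4:**
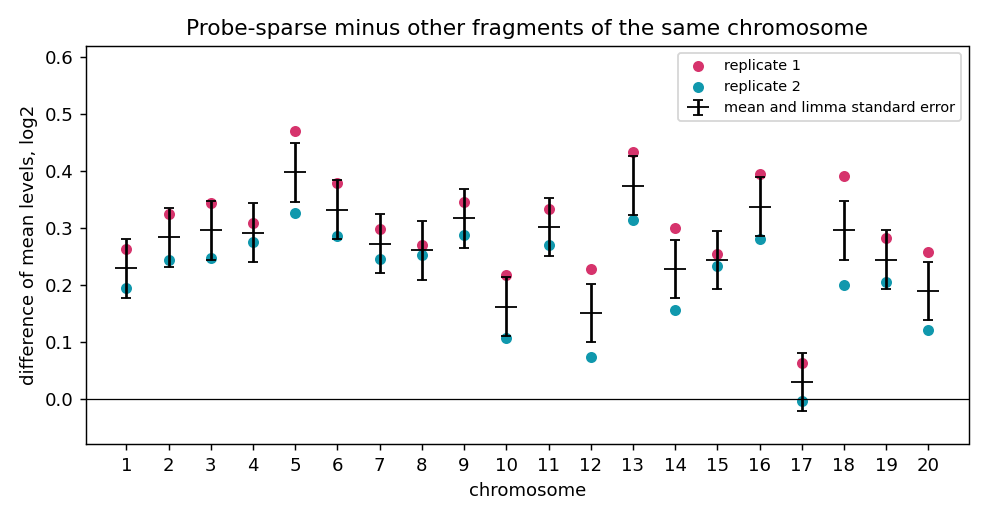
Mean level of probe-sparse fragments minus the mean level of the other fragments of the same chromosome, on the log2 scale, for replicate 1, replicate 2 and their mean with the standard error from limma. Both arrays lie above 0 on 19 chromosomes, and chromosome 17 lies near 0.

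Probe-sparse fragments were unevenly placed. Chromosome 2 had the largest share, with 76 of 259 fragments (29.3%), of which 47 were called above 0 and 1 below. Chromosome 10 had the smallest, with 8 of 111 (7.21%), and chromosome 8 had 7.69%. On chromosome 10 only 1 of the 8 was called above 0, and 2 were called below. Of the 60 fragments in the first 3 Mb of the autosomes 3 were probe-sparse, and of the 60 in the last 3 Mb 11 were, a share close to that over all autosomal fragments. The latter 11 averaged 0.20 and 0.11. Each of them was the last fragment of its chromosome to hold probes, where the chromosome end can cut a fragment short. Probes spanned 57175 bases in chr3:171000001-172000000, 116028 in chr4:187000001-188000000 and 76752 in chr5:173000001-174000000. The share at the chromosome ends is thus no measure of wide probe spacing there.

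To compare a fragment with its own surroundings, 179 probe-sparse fragments between neighbours of 50 or more probes were set against the mean of both neighbours. They averaged 0.19 on replicate 1 and 0.048 on replicate 2, and their neighbours 0.073 and -0.031. The excess was 0.11 and 0.078, or 0.096 ± 0.026 (SD, n = 2), which is smaller than the difference from all fragments with 50 or more probes. Limma called 40 of the 179 (22.3%) above their neighbours and 3 (1.68%) below, where over the 1734 fragments tested in this way 6.81% were above and 4.9% below. Among the 1553 tested fragments with 50 or more probes, 5.02% were above and 5.28% below. With the fragment input trend removed the counts were 25 above and 8 below, and with weights by the number of probes 21 and 2. The count below was also 11 before dye normalization, 7 after normexp correction, 5 with bright probes alone, 1 with medians over probes and 10 of 176 on the shifted grid. Shares over all fragments tested were not computed for these alternatives, so their counts cannot be read as particular to probe-sparse fragments.

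The largest excess was at chr20:42000001-43000000, where the fragment had 0.36 and 0.40 and its neighbours -0.29 and -0.16 (difference 0.61, limma, adjusted p = 4.3e-08). At chr3:93000001-94000000 the fragment stood 0.39 and 0.66 above its neighbours, and at chr5:78000001-79000000 0.44 and 0.58. All 3 lay above 0 on both arrays themselves. The 3 called below their neighbours were chr18:38000001-39000000 (-0.24 and -0.50), chr7:5000001-6000000 (-0.22 and -0.45) and chr20:35000001-36000000 (-0.22 and -0.37). None of these 3 was called against 0, and the neighbours of each were above 0 on both arrays.

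Of the probe-sparse fragments, 256 adjoined another, and these had the higher levels. The 452 fragments formed 286 runs, with 196 single fragments, 52 runs of 2 and 38 runs of 3 or more. Single fragments averaged 0.19 and 0.054, fragments in runs of 2 averaged 0.36 and 0.19, and those in runs of 3 or more 0.45 and 0.24. The share called above 0 was 37.2%, 64.4% and 73.7%, and the share called below 10.7%, 1.92% and 0.658%. The input dimmed in the same order, from a geometric mean of 70.01 and 54.1 through 54.0 and 40.5 to 44.6 and 33.4, and its part in this order was not tested.

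The longest run covered 11 Mb at chr2:129000001-140000000 with 478 probes. Its mean was 0.51 on replicate 1 and 0.27 on replicate 2, while the fragments on both sides averaged -0.093 and -0.14. Of its 11 fragments 8 were called above 0 and 10 lay above 0 on both arrays. The exception to the latter was chr2:132000001-133000000, already given with 0.49 and -0.27. Of the 6 highest fragments, 2 lie in this run.

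The next run covered 7 Mb at chr3:79000001-86000000, with a mean of 0.52 and 0.34 and fragments at -0.047 and -0.25 on its sides. Of its fragments 6 were called above 0. In the run at chr2:63000001-69000000 all 6 fragments were called, with a mean of 0.52 and 0.36. The level did not end with it, since the next fragment, with 51 probes, had 0.80 and 0.39. The run at chr2:6000001-12000000, of the same length, had 0.36 and 0.27 with 4 of 6 called, and its fragment chr2:9000001-10000000 lay below 0 on both arrays, at -0.15 and -0.20.

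**Figure D5:**
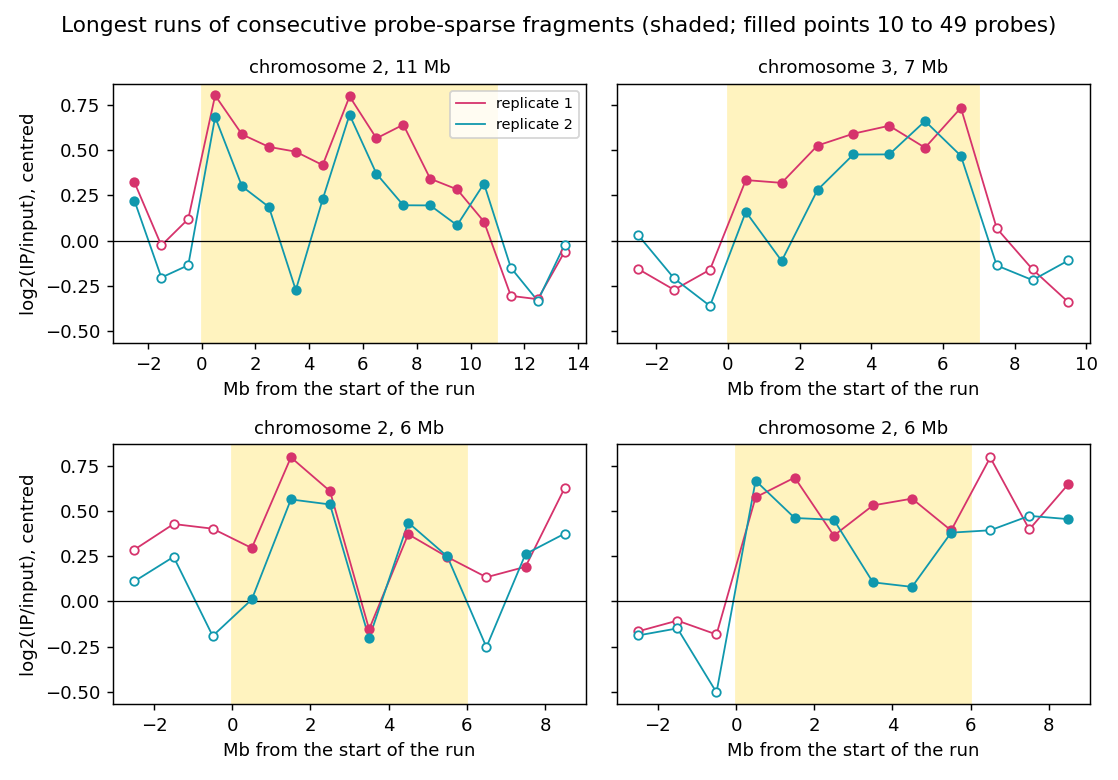
Level along the longest runs of consecutive probe-sparse fragments and 3 fragments on each side, as centred log2(IP/input) against the distance from the start of the run in Mb, for both arrays; runs are shaded, filled points are probe-sparse fragments and open points hold 50 or more probes. In the runs of 11 and 7 Mb the level drops on both sides of the shaded stretch, and in the last run it stays high on the right.

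Probe-sparse fragments mostly had widely spaced probes. The median interval between neighbouring probes was 19633 bases, against 7095 in fragments with 50 or more probes. In 65.9% of their probes the nearest probe was 10 to 20 kb away, and these averaged 0.34 and 0.16. Probes with the nearest one within 5 kb (618 probes) averaged 0.054 and -0.028, and those with none within 20 kb 0.35 and 0.18. Levels were thus lowest where probes sat close together inside a sparse fragment. Input was also brighter there, at 100.5 and 77.9, against 60.7 and 46.1 where the nearest probe was 10 to 20 kb away. Spacing and input were not tested apart.

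A gap of over 100 kb without probes lay in 123 probe-sparse fragments (27.2%), against 9.94% of fragments with 50 or more probes, and the longest was 754238 bases. The 354 probes beside such gaps averaged 0.17 and 0.13, and the other probes of probe-sparse fragments 0.33 and 0.15. Input was 100.1 and 75.8 beside the gaps and 62.8 and 48.0 at the other probes, and its part was not tested. Of the 329 fragments without such a gap, taken after seeing the data, 205 (62.3%) were called above 0 and 13 (3.95%) below. Over all fragments tested, with or without a gap, the shares were 20.9% and 20.4%. Fragments with a longer largest gap had lower levels, with r = -0.23 and -0.19 over 452 fragments.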

How the data were processed

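The authors deposited, per spot, the processed red and green intensity from Agilent Feature Extraction 10.5.1.1 (background subtracted, spatially detrended, dye-normalized by lowess), median intensities of spot and background, the log10 ratio of IP over input, spot flags, and a table of log2 values that equals log2 of the processed ratio. The log10 ratio was not used for the main levels. Controls were dropped together with 305 outlier spots, spots of a probe were averaged, and levels were centred on the array median, without loess or quantile normalization. Coordinates are those of the files (rn4).

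Fragments were tested with limma 3.58.1 in R 4.3.3 (lmFit, eBayes; two-sided p adjusted after Benjamini-Hochberg, threshold 0.05). The intercept model ran over 2731 fragments, the contrast with both neighbours over 1734, and the comparison within chromosomes over 20. The 2 arrays leave 1 residual degree of freedom per fragment or chromosome. Limma pooled the spread over all fragments or chromosomes of a fit, so small p-values rest on the degrees of freedom of many of them. All share the same 2 arrays, and p-values reflect only the spread between these arrays. The models were tested on simulated data. Other steps used Python 3.11.15, numpy 2.4.6, pandas 2.3.3, scipy 1.17.1, statsmodels 0.14.6 and matplotlib 3.10.9. Arrays give no counts, so their number limits the precision.

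The fragments, lists and tests were chosen with earlier results of these data known. Named fragments are the 6 highest and 6 lowest called with the same sign on both arrays, the longest runs (3, with ties), the 3 with the largest difference between rats in each direction, the 3 most above and most below their neighbours, and chromosomes with the most and smallest share. Fragments given besides these were chosen after their values were seen. Alternatives were normexp with an offset of 50 on median signals, intensities before dye normalization, probes well above background, medians over probes, a shifted grid, removal of a lowess trend on input, spread as a trend on and weights by the number of probes, a level beyond 0.25 on both arrays, other limits on the number of probes, and each replicate alone. Also run were the log10 ratio and the deposited log2 values, both uncentred, the main levels without centring, and outlier spots kept. Gene names and sequences were not analysed here, since no rn4 genome or annotation was used.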

Additional observations from a re-analysis of the deposited data

How the results depend on the processing

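The mean difference from fragments with 50 or more probes kept its sign in every alternative run. Centring cannot change this difference, so the uncentred levels and the deposited log2 values only repeat the main result. The called fragments among the 24 named kept their signs under the 9 alternatives computed for them, which leave out neither array. Those 9 include the uncentred and deposited values, which shift every level by 0.012 on replicate 1 and 0.062 on replicate 2. They also include the log10 ratio and outlier spots kept, with mean differences of 0.291 and 0.292, near the main 0.293. Signs of the other called fragments were not compared. The mean difference moved most with normexp background correction, to 0.058 (0.094 and 0.022 on the arrays), and with the fragment input trend removed, to 0.091. Without one replicate it ran from 0.25 to 0.34. Normexp left 3 fragments called above 0 and 14 below (0.256% and 3.63% of all fragments; 66 probe-sparse ones at an unadjusted p under 0.05 in limma, either direction), 0 chromosomes (4 at an unadjusted p under 0.05), 7 fragments below their neighbours and an SD over fragments of 0.061. Removing the trend on probe input gave 162 above and 7 below (11.9% and 13.3% of all fragments), r = 0.59 and an SD of 0.21. Removing the fragment trend gave 80 and 13 (6.74% and 10.4% of all), 25 above and 8 below neighbours, and 9 chromosomes. The spread as a trend on the number of probes gave 190 above and 8 below (19.1% and 26.9% of all), and weights gave 203 and 11 (20.5% and 28.0% of all) with 21 above neighbours. Without fragments holding a gap, 13 (3.95%) were below, against 20.4% of all fragments tested. Beyond 0.25 on both arrays there were 159 above and 6 below (13% and 10.4% of all), 24 above neighbours and 0 below. With 10 to 39 probes, 48 and 6 of 93 fragments were called, 7 and 1 against neighbours, and 6 of 8 chromosomes. Before dye normalization 11 fell below neighbours and the SD was 0.31. Bright probes gave 5 and 0.27, medians 1 and 0.25, the shifted grid 10 and 0.26. Single replicates gave an SD of 0.27 to 0.28. Of 216 values of 24 named fragments under alternatives, 140 stayed within the SD between arrays and 76 moved. The 216 include the uncentred and deposited values, whose shift from the main level is fixed in advance. No paired analysis was possible because both arrays belong to 1 group. Dim input signals, 2 arrays and the missing dye swap limit the depth of these comparisons. For counts against neighbours under the alternatives, shares over all fragments tested were not computed. The cause of these shifts was not tested, and the planned results on gene names were not run.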

Other observations

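On the X chromosome, 40 fragments held 10 to 49 probes. They averaged 0.27 on replicate 1 and -0.020 on replicate 2, and limma called 9 above 0 and 1 below. The 119 fragments of the X chromosome with 50 or more probes averaged 0.0067 and -0.20, with 7 called above and 35 below. The sparse fragments were thus higher on both arrays. The correlation between rats was r = 0.44 over the 40 fragments and 0.76 over the 119.

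Of the 15 autosomal fragments with fewer than 10 probes, chr2:1-1000000 with 8 probes had 0.93 and 0.97, and chr1:31000001-32000000 with 9 probes had 0.63 and 0.84, both higher than most probe-sparse fragments. At the other end, chr8:129000001-130000000 with 2 probes had -0.48 and -1.93. A pair of probes gives no stable mean, and these values are listed without a test.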
